A study of Homo sapiens with 6 samples.

Results

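The ATP-binding cassette (ABC) genes were followed in RNA-seq libraries of MDA-MB-231, a long-established line of human triple-negative breast cancer cells with mesenchymal traits. Members were all rows of the gene tables whose symbol starts with ABCA, ABCB, ABCC, ABCD, ABCE, ABCF or ABCG followed by a digit, which gave 50 of 23228 listed genes. They were 45 genes and 5 pseudogenes, namely ABCA11P, ABCA17P, ABCC6P1, ABCC6P2 and ABCC13. The superfamily members TAP1, TAP2 and CFTR carry other symbols and are given separately.

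All cells were MDA-MB-231 grown in DMEM with fetal bovine serum and carried lentivirus, and all were kept under puromycin for a week. The scramble group (3 libraries) received a scrambled short hairpin RNA (shRNA), and the SCUBE3 knockdown group (3 libraries) an shRNA against SCUBE3, a secreted protein with EGF-like domains. How many hairpin sequences were used, and whether the cells were clones or pools, is not given in the sources used here. Nothing in the labels ties the libraries to separate cultures. The p-values thus reflect the spread between libraries alone, which may be technical.

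ABC proteins bind and hydrolyse ATP in a conserved nucleotide-binding domain. Most of them use this energy to carry lipids, sterols, drug conjugates, peptides or metal-linked compounds across the plasma membrane or the membranes of mitochondria, peroxisomes and lysosomes, and some expel anticancer drugs from tumour cells. ABCE and ABCF proteins lack membrane-spanning parts and act on ribosomes.

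Reads in genes ran from 21348509 to 25520901 per library, and the targeted RNA, that of SCUBE3, did not fall under the knockdown label. SCUBE3 had 96, 91 and 80 reads in scramble and 99, 107 and 101 in the other group (log2 fold change 0.03 ± 0.14, SE; edgeR adjusted p = 0.871), and its 95% interval ran from -0.26 to 0.31. Directions are therefore those of the labels only, and the group is called "labelled knockdown" throughout. Of 8 markers known to be high in this line, including VIM, CD44, EGFR and AXL, all were read, with summed levels of 10063 to 10520 CPM (gene counts scaled for sequencing depth, with edgeR's TMM factors) in scramble and 7003 to 7163 CPM in the other group. CDKN2A and CDKN2B, reported as deleted in this line, had 1 and 0 reads over the scramble libraries and 0 and 0 over the others. Of 8 markers known to be low or absent in it, which summed to 588 to 608 CPM in scramble and 516 to 525 CPM in the other group, KRT8 and KRT18 made up 279 ± 6.23 against 260.2 ± 2.30 CPM and 286 ± 9.50 against 221 ± 3.69 CPM (SD, n = 3). Of that list PGR had 66 reads over the scramble libraries and 0 over the others, and CDH1 3 and 152. Markers of leukocytes, endothelium and liver summed to 1.35 to 2.02 CPM in scramble and 9.06 to 9.70 CPM in the other group, of which the monocyte gene CD14 accounted for 0.234 ± 0.127 against 6.19 ± 0.433 CPM (SD, n = 3). PTPRC, the defining leukocyte gene, had 9 and 11 reads. The part of these markers in the ABC results was not tested.

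ABC genes together took a larger share of gene reads in the libraries labelled knockdown, 0.177% to 0.180%, than in scramble, 0.125% to 0.127%. In bulk libraries, a change in the number of cells with an RNA and a change in RNA per cell cannot be told apart. The low-count filter kept 29 of the 50, and all 29 passed edgeR's quasi-likelihood test at 0.05 (Benjamini-Hochberg over 13606 genes), where 85.9% of all tested genes did. By direction, 23 were higher in the libraries labelled knockdown and 6 lower, beside 43.4% higher and 42.5% lower among all tested genes. Of the 29, 27 passed the filter in both groups, while ABCC6 and ABCG4 passed through the libraries labelled knockdown alone and so had to differ.

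A change of 1 or more on the log2 scale together with an adjusted p under 0.05 was reached by 13 ABC genes, all of them higher in the libraries labelled knockdown, or 11 without ABCC6 and ABCG4. Among all tested genes, 17.5% were higher and 13.8% lower by that rule (31.2% in all). In edgeR's glmTreat test against a 1.5-fold change, 15 ABC genes were higher and 0 lower, beside 24.3% and 21.6% of all tested genes (45.9% in all). The 15 include ABCC6 and ABCG4, which passed the filter through the libraries labelled knockdown alone. None of the 6 lower genes passed the glmTreat test, although all 6 had an unadjusted p under 0.05 in the test against no change. The median log2 fold change of the 29 was 0.74, beside 0.01 over all tested genes.

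**Figure D1:**
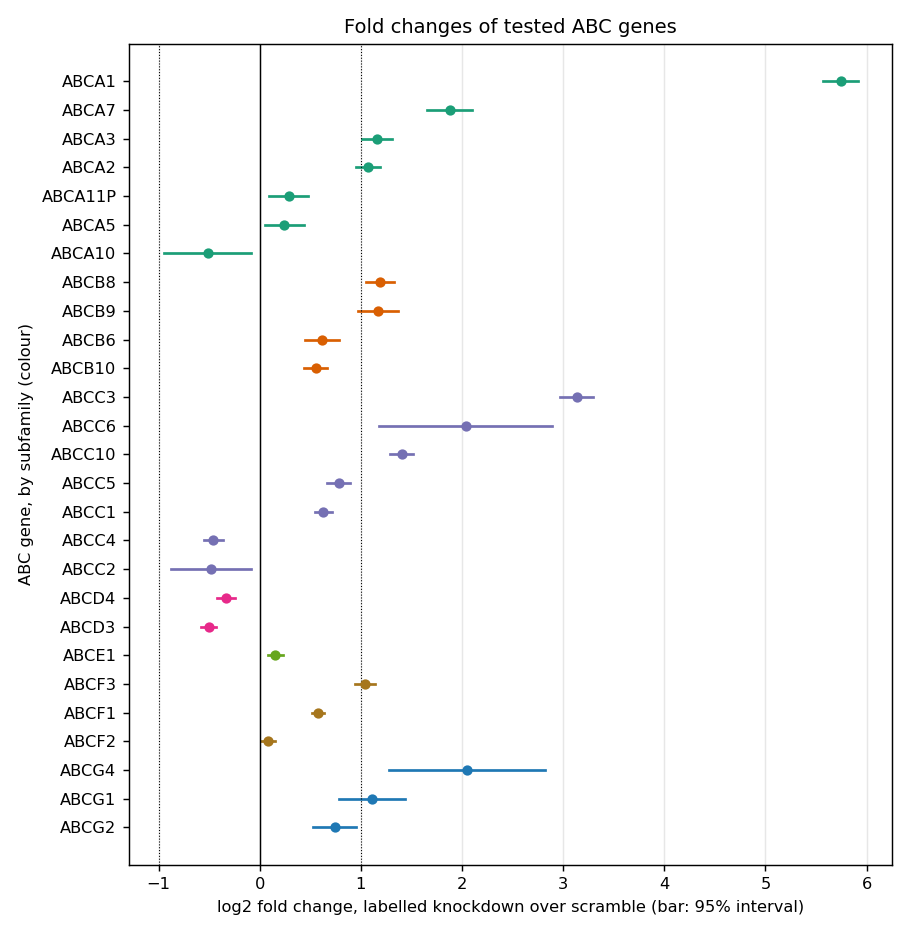
Log2 fold changes of tested ABC genes (labelled knockdown over scramble, x axis) with their 95% intervals, grouped and coloured by subfamily on the y axis, with dotted lines at -1 and 1. ABCA1 lies at 5.74, ABCC3 at 3.14, and the lowest gene, ABCA10, at -0.52. Tested genes whose values are not reported here are not plotted.

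The libraries of the 2 groups did not overlap for 27 of the 29 genes, 22 higher and 5 lower, where 85.8% of all tested genes did not overlap (43.3% higher and 42.5% lower). The exceptions were ABCC2 and ABCF2. Members are given below by role. This grouping was made with their values known.

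The stretches just before the transcription starts of 5 members are shown, a choice made with their values known, because these genes span the range of the results: ABCA1 rose the most, ABCA7 and ABCF3 rose too, and ABCC4 and ABCD3 fell. They are the 250 bases before the start in RefSeq's annotation of GRCh38.p14, on the gene's own strand, whereas the reads were counted on hg19. Capitals mark GC boxes (GGGCGG, read on both strands) and E-boxes (CACGTG, a palindrome).
ABCA1, chr9:104928156-104928405, minus strand: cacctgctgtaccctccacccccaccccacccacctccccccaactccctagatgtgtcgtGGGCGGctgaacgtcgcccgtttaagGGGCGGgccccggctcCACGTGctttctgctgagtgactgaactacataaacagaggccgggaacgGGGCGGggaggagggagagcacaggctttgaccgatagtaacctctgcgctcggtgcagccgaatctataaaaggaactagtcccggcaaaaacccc
ABCA7, chr19:1039857-1040106, plus strand: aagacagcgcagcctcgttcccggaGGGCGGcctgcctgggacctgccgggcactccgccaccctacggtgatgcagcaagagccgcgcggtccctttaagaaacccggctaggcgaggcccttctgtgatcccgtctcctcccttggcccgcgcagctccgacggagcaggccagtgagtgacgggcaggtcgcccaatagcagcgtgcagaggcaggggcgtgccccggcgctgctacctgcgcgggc
ABCF3, chr3:184185949-184186198, plus strand: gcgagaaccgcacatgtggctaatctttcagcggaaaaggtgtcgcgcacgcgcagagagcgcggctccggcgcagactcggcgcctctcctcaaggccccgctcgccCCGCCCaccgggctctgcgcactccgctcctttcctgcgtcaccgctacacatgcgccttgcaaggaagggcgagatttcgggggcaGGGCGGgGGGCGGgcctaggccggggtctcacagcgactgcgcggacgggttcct
ABCC4, chr13:95301452-95301701, minus strand: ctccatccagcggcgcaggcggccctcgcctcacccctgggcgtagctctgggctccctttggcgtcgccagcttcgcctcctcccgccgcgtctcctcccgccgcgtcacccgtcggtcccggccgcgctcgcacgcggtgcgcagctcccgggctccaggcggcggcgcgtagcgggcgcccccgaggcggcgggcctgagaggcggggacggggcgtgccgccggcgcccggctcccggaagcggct
ABCD3, chr1:94418139-94418388, plus strand: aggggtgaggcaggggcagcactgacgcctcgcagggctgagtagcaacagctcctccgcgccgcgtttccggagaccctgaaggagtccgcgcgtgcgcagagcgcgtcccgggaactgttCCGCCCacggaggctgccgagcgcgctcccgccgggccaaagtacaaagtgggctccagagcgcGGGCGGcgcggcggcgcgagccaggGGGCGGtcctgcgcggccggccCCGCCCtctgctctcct

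ABCA1 had 3 GC boxes, 1 E-box and 1 TATA box (TATAAA) in this window, and was the only 1 of the 5 with an E-box or a TATA box. ABCF3 held 3 GC boxes, ABCA7 held 1, and ABCC4, which fell, held 0. ABCD3, which also fell, held 4, so the count of GC boxes did not order these 5 genes by direction. GC content was 61.6% for ABCA1 and 69.6% to 80.4% for the other 4. The table held 53 start sites for 35 of the 50 members. GC boxes lay in 47.2% of those 53 windows and in 42.6% of all 35116 windows, E-boxes in 9 of the 53 and in 6.34% of all windows, and TATA boxes in 11.3% and 10.7%. Median GC content was 61.6% in the ABC windows and 58.0% in all windows. A match describes the letters only.

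Sterol and phospholipid transporters were higher in every case tested, 6 of 6, all of them by at least 1 on the log2 scale. ABCG4, 1 of the 6, is the one that had to differ to be tested. Among all tested genes, 43.4% were higher, and 17.5% were higher by at least 1. This role was drawn with values known, and the ABCA genes ABCA5 (log2 0.24) and ABCA10 (log2 -0.52) were grouped apart. ABCA1, which loads cholesterol and phospholipid onto apolipoprotein A-I and is induced by the liver X receptors, had 1.77, 1.86 and 1.48 CPM in the scramble libraries and 89.3, 90.3 and 94.7 CPM in the libraries labelled knockdown. All 3 scramble libraries lay under 2 CPM, and the ranges were far apart. The fold change was 53.5 (log2 5.74 ± 0.08, SE; edgeR adjusted p = 8.26e-39).

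ABCA7, a phospholipid transporter of the plasma membrane, had 4.08, 3.67 and 3.37 CPM in the scramble libraries and 13.7, 13.2 and 14.2 CPM in the libraries labelled knockdown, a 3.68-fold difference (log2 1.88 ± 0.11; adjusted p = 8.56e-19). ABCA3, which fills the lamellar bodies of lung cells with surfactant lipid, had 14.1, 12.2 and 12.8 CPM against 28.5, 28.3 and 31.2 CPM (log2 1.16 ± 0.07; adjusted p = 8.26e-18). ABCA2, a lipid transporter of endosomes and lysosomes known from myelin-forming cells, had 24.7, 28.7 and 28.03 CPM against 54.4, 56.1 and 60.5 CPM (log2 1.07 ± 0.06; adjusted p = 1.11e-19). In these 3 genes, with the scramble libraries given first here and below, each labelled knockdown library was above each scramble library. Their fold changes of about 2.10 to 3.68 were well under that of ABCA1.

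ABCG1, which moves cholesterol to mature high-density lipoprotein and is also a liver X receptor target, had 1.94, 2.38 and 2.16 CPM in the scramble libraries and 4.57, 4.51 and 4.89 CPM in the libraries labelled knockdown, which is 1.11 ± 0.16 on the log2 scale (adjusted p = 4.92e-08). ABCG4, its close relative known mainly from brain, had 3, 9 and 5 reads in scramble and 29, 29 and 23 in the other group, or 0.126, 0.429 and 0.225 CPM against 1.16, 1.12 and 0.930 CPM (log2 2.05 ± 0.38; adjusted p = 6.00e-06). Both differences were separated between groups, and ABCG4 stood near the detection limit in scramble. ABCA4, the retinoid-lipid transporter of photoreceptors, did not pass the filter, with 11, 6 and 11 reads against 5, 5 and 4. ABCA12 had 1 read in all, and ABCB4, ABCG5 and ABCG8, lipid and sterol exporters of the liver and gut, had 0 in every library. For genes with 0 reads, 3 reads over a group allow up to 0.0448 CPM over the scramble libraries and 0.0397 CPM over the others, by counting error alone.

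**Figure D2:**
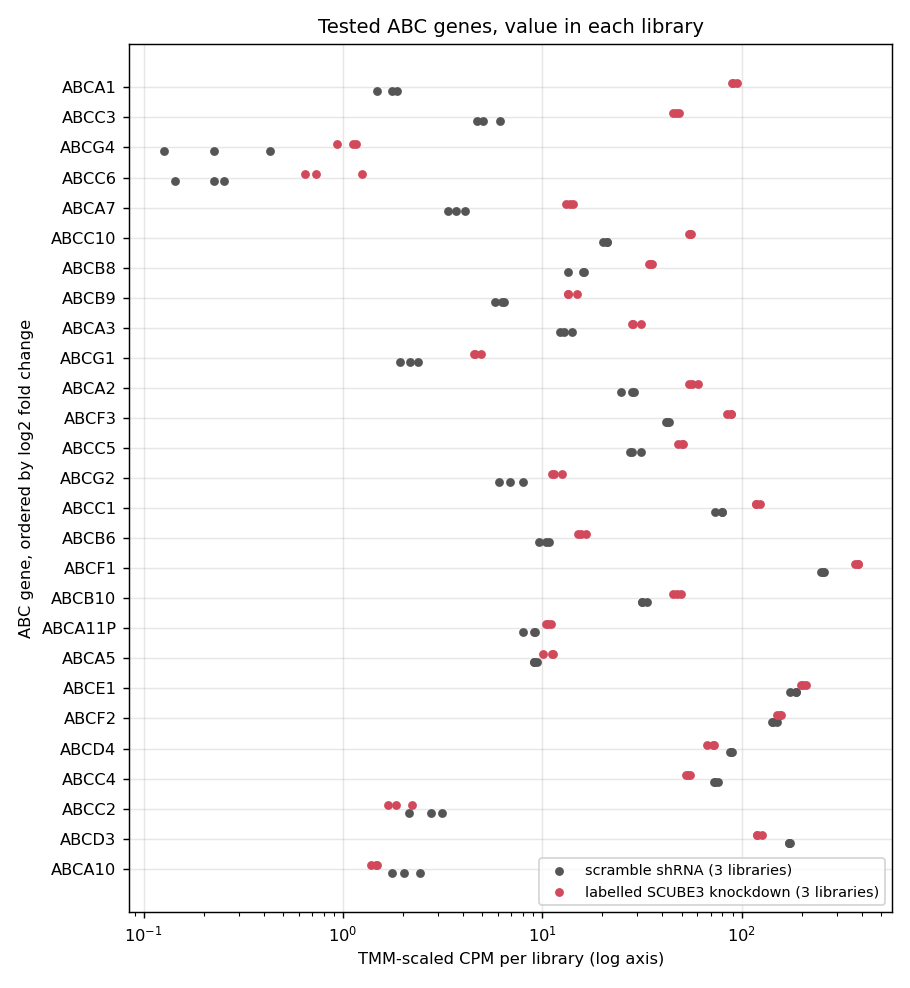
CPM of tested ABC genes (y axis, ordered by log2 fold change) in each of 3 scramble and 3 labelled knockdown libraries (x axis, log scale). The 2 groups of points overlap for ABCC2 and ABCF2, and ABCA1 is the gene with the widest gap. Tested genes whose values are not reported here are not plotted.

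The partners of these transporters in sterol handling moved both ways. Of 19 sterol efflux and liver X receptor genes tested, 10 were higher, 4 lower and 5 not called, with a median log2 fold change of 0.11. Of all tested genes, 43.4% were higher and 42.5% lower. Of the 2 liver X receptor genes, NR1H2 had 62.96 ± 3.45 against 68.03 ± 2.26 CPM (SD, n = 3; log2 0.11 ± 0.05, adjusted p = 0.0274) and NR1H3 10.6 ± 0.684 against 9.12 ± 1.49 CPM (log2 -0.22 ± 0.10, adjusted p = 0.0513). Their partner gene RXRB was higher (log2 1.31 ± 0.04), as was SREBF1, which encodes a lipid synthesis factor and is a liver X receptor target (log2 1.44 ± 0.05).

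NPC2, which hands cholesterol out of lysosomes, was higher as well (81.2 ± 3.02 against 177 ± 6.96 CPM, log2 1.12 ± 0.04). MYLIP, another receptor target, was at 13.5 ± 0.487 against 26.8 ± 1.51 CPM (log2 0.98 ± 0.07). APOE, which accepts the exported lipid and is a receptor target in macrophages, was near 0.6 CPM in both groups (0.651 ± 0.168 against 0.634 ± 0.0603 CPM, adjusted p = 0.894). LPCAT3, a target in many tissues, had a log2 fold change of -0.01 ± 0.06 (adjusted p = 0.923). The direction of both APOE and LPCAT3 flipped when libraries were scaled by their totals. MYLIP, APOE and LPCAT3 were picked out after their values were seen.

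Exporters of organic anions and drugs moved both ways. Of 10 such genes, 7 were tested, 5 were higher and 2 lower, beside 43.4% and 42.5% of all tested genes. ABCC3, which exports glucuronides and bile salts, had 4.71, 5.06 and 6.16 CPM in the scramble libraries and 45.1, 46.6 and 48.3 CPM in the libraries labelled knockdown. Every labelled knockdown library was above 45 CPM and every scramble library under 7 CPM, an 8.79-fold difference (log2 3.14 ± 0.08; adjusted p = 1.31e-30).

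ABCC10, which can expel taxanes, had 21.1, 20.2 and 21.2 CPM against 54.4, 55.98 and 55.01 CPM (log2 1.40 ± 0.06; adjusted p = 3.13e-24). ABCC1, which exports glutathione conjugates and leukotriene C4 and confers resistance to several drugs, had 73.7, 80.04 and 79.4 CPM against 118, 118 and 123 CPM (log2 0.63 ± 0.04; adjusted p = 4.43e-17). Both groups were separated for both genes. ABCC5, an exporter of cyclic nucleotides and other anions, had 28.9 ± 1.997 against 49.7 ± 1.42 CPM (SD, n = 3; log2 0.78 ± 0.06). ABCG2, the breast cancer resistance protein that expels many drugs, had 6.98 ± 1.01 against 11.7 ± 0.732 CPM (log2 0.74 ± 0.10, adjusted p = 3.02e-08).

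ABCC4, which exports cyclic nucleotides, prostaglandins and nucleotide analogues, went the other way. It had 73.1, 72.98 and 75.9 CPM in the scramble libraries and 55.05, 52.5 and 54.1 CPM in the libraries labelled knockdown, with no overlap, and fell by a factor of 1.37 (log2 -0.46 ± 0.05; adjusted p = 8.37e-12). Per kilobase of transcript, in scramble and in the labelled knockdown, ABCC1 had 11.9 and 18.3 CPM per kb and ABCC4 12.6 and 9.20. ABCC2, an exporter of liver and kidney apical membranes, was lower (2.69 ± 0.506 against 1.92 ± 0.277 CPM; log2 -0.48 ± 0.19, adjusted p = 0.0216).

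The groups of ABCC2 overlapped, and the exact 2-sided permutation p over libraries (n = 3 per group) was 0.2, in a design that cannot go below 0.1. Its call was lost without scramble replicate 3 (log2 -0.35, adjusted p = 0.123), without labelled knockdown replicate 1 (adjusted p = 0.0922) or 2 (0.0584), and with DESeq2 (adjusted p = 0.0717). Over all alternatives its adjusted p ran from 0.00498 to 0.754, the upper end from glmTreat against a 1.5-fold change. ABCB1, which encodes P-glycoprotein, the best known drug efflux pump, had 1 read in 6 libraries. ABCC11 had 2 and 4 reads and ABCC12 2 and 0 over the scramble and labelled knockdown libraries.

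**Figure D3:**
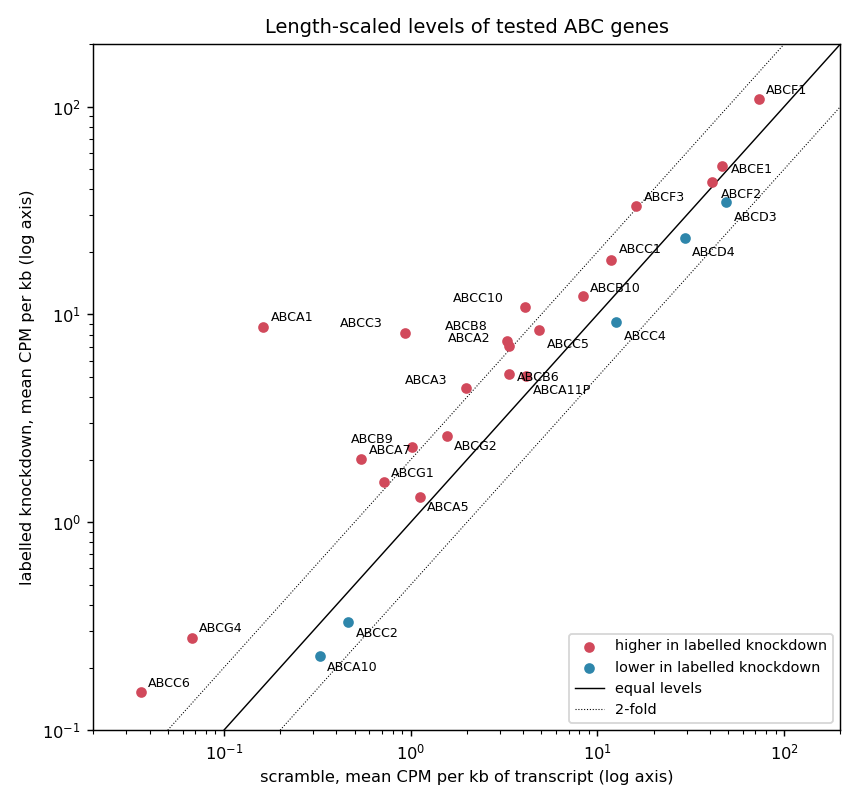
Mean CPM per kb of transcript of tested ABC genes in scramble (x axis) and labelled knockdown libraries (y axis), both on log scales, with lines of equal level and of 2-fold difference. ABCF1 is the highest in both groups, and ABCA1 lies farthest above the line of equal level. Tested genes whose values are not reported here are not plotted.

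Genes that work beside these exporters, in lists chosen with earlier results known, were more often higher than lower. Among 18 tested genes of xenobiotic regulation and conjugation, 13 were higher and 4 lower, with a median log2 fold change of 0.65. Of all tested genes, 43.4% were higher and 42.5% lower. CYP1B1, an oxidising enzyme induced through the aryl hydrocarbon receptor, had 9.66 ± 0.458 against 175 ± 6.33 CPM (SD, n = 3; log2 4.18 ± 0.05), and the receptor gene AHR itself 111 ± 2.44 against 175 ± 5.06 CPM (log2 0.66 ± 0.04). CYP1A1, the usual marker of that receptor, was lower (log2 -0.91 ± 0.19; picked out after its value was seen).

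MVP, the major vault protein linked to drug resistance, was higher (log2 2.63 ± 0.05), and so were EPHX1, an epoxide hydrolase (log2 1.87 ± 0.07), and GSTM1 (log2 3.99 ± 0.17), a glutathione transferase whose reads can be confused with those of its relatives. NFE2L2, the antioxidant regulator NRF2, was not called (134 ± 8.51 against 133 ± 4.62 CPM; log2 -0.01 ± 0.04, adjusted p = 0.885), and its sign flipped with scaling by library totals. NR1I2, the pregnane X receptor that drives ABCB1 and ABCC2 in liver, had 0 reads in every library.

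Of 10 glutathione genes, 6 were higher and 3 lower (median 0.27), beside 43.4% and 42.5% of all tested genes. GGT1, which breaks glutathione down outside the cell, was higher (log2 3.997 ± 0.18). The cystine importer SLC7A11 (log2 -1.44 ± 0.05) and the glutaredoxin gene GLRX (log2 -0.98 ± 0.06) were lower. Uptake carriers of drugs and organic ions were higher in 10 and lower in 3 of 14 tested (median 0.95). SLCO4A1 (log2 1.49 ± 0.05), SLCO3A1 (log2 1.26 ± 0.07) and the copper importer SLC31A1 (log2 0.79 ± 0.05) were higher and SLCO1B3, an anion carrier of liver cells, lower (log2 -1.34 ± 0.06).

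Mitochondrial and lysosomal ABCB genes described here were higher in the libraries labelled knockdown. ABCB8, a transporter of the inner mitochondrial membrane, had 13.5, 16.2 and 16.1 CPM in the scramble libraries and 35.5, 34.6 and 34.2 CPM in the libraries labelled knockdown (log2 1.19 ± 0.07; adjusted p = 7.11e-19). ABCB9, which carries peptides into lysosomes, had 6.44, 6.25 and 5.80 CPM against 13.4, 14.9 and 13.5 CPM (log2 1.17 ± 0.10; adjusted p = 4.59e-14). Both were separated between groups. Of the ABCB9 transcript's 50-base windows, 45.1% also lie on the opposite strand of transcripts of its neighbours in GENCODE release 29, among them ARL6IP4 and OGFOD2, and the strand setting of the counting is not given.

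ABCB10, a mitochondrial transporter needed for heme synthesis, had 32.3 ± 1.24 against 47.3 ± 1.95 CPM (SD, n = 3; log2 0.55 ± 0.05, adjusted p = 6.30e-12), and ABCB6, linked to porphyrin transport, 10.3 ± 0.584 against 15.8 ± 0.735 CPM (log2 0.62 ± 0.08, adjusted p = 1.86e-08). For ABCB6, 90.8% of windows are shared with a transcript of another annotated gene, AC068946.2, so the split of its reads depends on the annotation used.

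Of 26 heme and iron-sulfur genes, 15 were higher and 8 lower (median 0.28), beside 43.4% and 42.5% of all tested genes. The heme-forming enzyme gene CPOX (log2 1.52 ± 0.05), the heme-degrading HMOX1 (log2 3.19 ± 0.12) and LYRM4, a helper of iron-sulfur assembly (log2 1.24 ± 0.06), were higher, and the cluster carrier gene GLRX5 was lower (log2 -0.74 ± 0.04). Of the superfamily genes with other symbols, TAP1, a subunit of the antigen peptide transporter, was at 25.3 ± 1.08 against 156 ± 1.28 CPM (log2 2.62 ± 0.05) and its partner TAP2 at 215 ± 2.47 against 315 ± 10.6 CPM (log2 0.55 ± 0.03). Both were higher in the libraries labelled knockdown. CFTR had 1 read in all.

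Of the ABCD genes, which serve peroxisomes and lysosomes, ABCD3 and ABCD4 were lower. ABCD3, the abundant peroxisomal membrane protein that handles branched-chain fatty acids and bile acid precursors, had 172, 173 and 175 CPM against 127, 119.9 and 119.8 CPM and was lower by a factor of 1.42 (log2 -0.50 ± 0.04; adjusted p = 4.84e-16). ABCD4, which takes part in moving cobalamin out of lysosomes, had 88.3, 89.9 and 87.4 CPM against 71.7, 66.97 and 72.5 CPM (log2 -0.33 ± 0.04; adjusted p = 6.32e-09). Each scramble library of these 2 genes was above each labelled knockdown library. ABCD2, a peroxisomal importer of long-chain fatty acids, had 1 and 5 reads over the scramble and labelled knockdown libraries.

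Of 27 peroxisome genes, 15 were higher and 6 lower (median 0.20), beside 43.4% and 42.5% of all tested genes. The sterol carrier gene SCP2 (log2 1.24 ± 0.04), the import factor gene PEX6 (log2 0.69 ± 0.04), the acyl-CoA synthetase gene ACSL1 (log2 0.84 ± 0.05) and PHYH, which starts the breakdown of phytanic acid (log2 1.21 ± 0.07), were higher. Among 7 cobalamin and lysosome genes, 4 were higher and 3 lower. LAMP2 (log2 2.22 ± 0.03) and LAMP1 (log2 0.63 ± 0.03), abundant lysosomal membrane proteins, were higher. MTR, the cobalamin-dependent methionine synthase (log2 -0.80 ± 0.04), and its reductase gene MTRR (log2 -0.65 ± 0.04) were lower, as was ABCD4. LMBRD1, whose product works with ABCD4 in the lysosomal membrane, was higher (log2 1.07 ± 0.07; picked out after its value was seen).

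The ribosome-associated genes were higher in 4 of 4 cases, by 1.06-fold (ABCF2) to 2.06-fold (ABCF3), beside 43.4% higher among all tested genes. ABCF3 had 42.3, 43.3 and 41.5 CPM in the scramble libraries and 84.2, 88.6 and 88.8 CPM in the libraries labelled knockdown, a 2.06-fold difference (log2 1.04 ± 0.05; adjusted p = 1.74e-22). ABCF1, which promotes translation initiation together with the initiation factor eIF2, had 254, 258 and 249 CPM against 382, 382 and 372 CPM (log2 0.58 ± 0.03; adjusted p = 3.01e-20). In both genes every labelled knockdown library was above every scramble library.

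ABCE1, which splits ribosomes after termination so that they can be used again, had 188, 187 and 174 CPM in the scramble libraries and 211, 198 and 202 CPM in the libraries labelled knockdown (log2 0.16 ± 0.04; adjusted p = 1.20e-04). ABCF2 had 144, 151 and 142 CPM against 157, 155 and 149.7 CPM, and scramble replicate 2 lay above labelled knockdown replicate 3 (log2 0.08 ± 0.04; adjusted p = 0.0338). For ABCF2 the exact permutation p over libraries (n = 3 per group) was 0.2. Its call was lost without scramble replicate 1 (adjusted p = 0.0944) or 3 (0.187) and without labelled knockdown replicate 1 (0.122) or 2 (0.0623). Over all alternatives its adjusted p ran from 8.90e-04 to 1, the upper end from glmTreat against a 1.5-fold change. Of the windows of ABCF2, 53.5% are shared with other annotated transcripts, including a pseudogene.

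Other genes of ribosome recycling, rescue and release were mostly lower, 12 of 19, with 4 higher and a median log2 fold change of -0.30. Of all tested genes, 42.5% were lower and 43.4% higher. The termination factor genes ETF1 (471 ± 3.19 against 238 ± 6.32 CPM, SD, n = 3; log2 -0.99 ± 0.03) and GSPT1 (log2 -0.81 ± 0.03) were lower. EIF3J, which helps to split ribosomes (log2 -1.22 ± 0.04), and MTIF2, a mitochondrial initiation factor gene (log2 -0.96 ± 0.04), were lower too. ABCE1 and PELO, the gene of its partner on stalled ribosomes (log2 0.53 ± 0.05; picked out after its value was seen), were higher in the same libraries.

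The remaining members were read little or changed little. ABCA5 had 9.16 ± 0.193 against 10.9 ± 0.697 CPM (SD, n = 3; log2 0.24 ± 0.09, adjusted p = 0.0159), and lost its call without labelled knockdown replicate 1 (adjusted p = 0.0545) or 3 (0.0636), within a range of 0.00407 to 1 over all alternatives. ABCA10, its neighbour on chromosome 17, was lower (2.07 ± 0.341 against 1.44 ± 0.0483 CPM; log2 -0.52 ± 0.21, adjusted p = 0.0245). That call was lost without scramble replicate 2 (log2 -0.40, adjusted p = 0.114), without labelled knockdown replicate 2 (0.0667) or 3 (0.0551) and with DESeq2 (0.0820), within a range of 0.0114 to 0.636. The upper ends of the ranges of ABCA5 and ABCA10 came from glmTreat against a 1.5-fold change. Their relatives ABCA6, ABCA8 and ABCA9 had 2, 8 and 0 reads over the scramble libraries and 6, 0 and 1 over the others. Against a floor of 3 reads over the group, ABCA8 was 3.01-fold lower, a value that leaves out the counting error of its 8 reads.

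ABCC6, which controls ATP release from cells and is mutated in pseudoxanthoma elasticum, had 6, 3 and 5 reads in scramble and 31, 19 and 16 in the other group, or 0.253, 0.143 and 0.225 CPM against 1.24, 0.733 and 0.647 CPM (log2 2.04 ± 0.42; adjusted p = 3.44e-05). Its pseudogenes share 14.95% of its windows. ABCC6P1 had 2 and 4 reads over the scramble and labelled knockdown libraries, and ABCC6P2 7 and 16 (ratio 2.02, 95% counting interval 0.788 to 5.82). ABCA11P was slightly higher (8.75 ± 0.635 against 10.7 ± 0.334 CPM; log2 0.29 ± 0.10, adjusted p = 0.00563), and 63.1% of its windows are shared with ZNF721 and ABCA10. ABCA17P had 1 and 16 reads (ratio 14.2, 2.20 to 594).

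ABCA13 had 0, 2 and 0 reads in scramble and 6, 12 and 3 in the other group (ratio 9.30, 2.27 to 81.8). ABCC9, the regulatory subunit of a potassium channel, had 3, 1 and 2 and 10, 9 and 2 reads (ratio 3.10, 1.21 to 9.38), with an overlap between groups. ABCC8, the subunit known from insulin-secreting cells, and ABCB11, the bile salt export pump, had 1 read each. ABCB5 and ABCC13 had 0. In all, 21 members did not pass the filter, 5 of them with no read at all and 16 with at most 12 reads in any library.

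Summed by subfamily without regard to gene length, the ABCA genes went from 66.2 ± 0.297 to 215 ± 7.87 CPM (SD, n = 3), with ABCA1 adding the most. The ABCC genes went from 209.9 ± 7.38 to 329 ± 3.12 CPM and the ABCF genes from 442 ± 9.65 to 619.9 ± 7.95. The ABCG genes had few reads, at 9.40 ± 0.879 and 17.4 ± 0.722 CPM. The ABCD sum went the other way and was the only 1 of the 7 that was lower in the libraries labelled knockdown, while the ABCB sum was higher; values of these 2 sums are not reported here. For each of the 7 subfamilies the libraries of the 2 groups did not overlap. Taken singly, 85.8% of all tested genes did not overlap either.

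**Figure D4:**
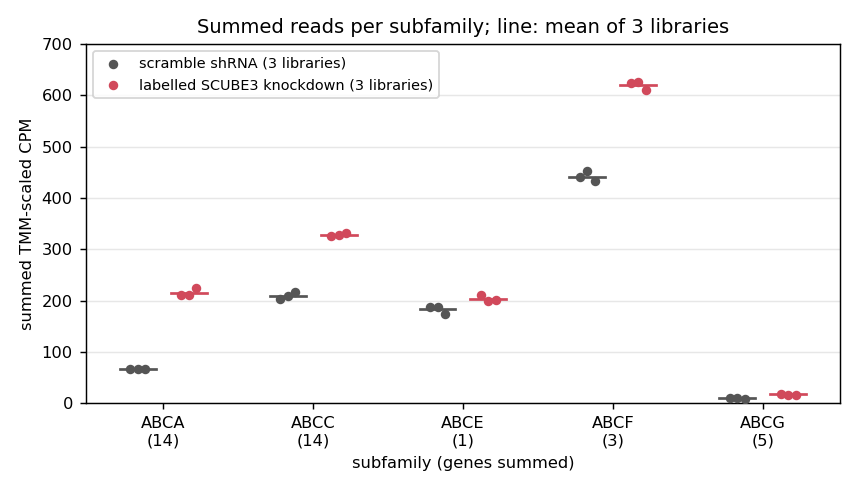
Summed CPM (y axis) of the genes of 5 ABC subfamilies (x axis, number of genes in brackets) in each library, with the mean of 3 libraries as a line. The ABCF sum is the highest of those shown in both groups, and each of the 5 sums shown is higher in the libraries labelled knockdown; the ABCB sum, which was higher, and the ABCD sum, which was lower, are not plotted.

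Compared per length, as CPM per kb of 1 GENCODE transcript per gene, the ribosome-associated gene ABCF1 led in both groups. In scramble the order was ABCF1 (72.9 ± 1.25 CPM per kb, SD, n = 3), ABCD3 (49.03 ± 0.465), ABCE1 (46.6 ± 1.94), ABCF2 (41.1 ± 1.28) and ABCD4 (29.5 ± 0.411). In the libraries labelled knockdown ABCF1 (109 ± 1.59) was followed by ABCE1 (51.96 ± 1.64), ABCF2 (43.5 ± 1.10), ABCD3 (34.5 ± 1.16) and ABCF3 (33.2 ± 0.996).

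ABCD3 and ABCF3 were within their spread of each other there. ABCA1 moved from place 27 of 50 in scramble (0.162 CPM per kb) to place 11 (8.71) and ABCC3 from 22 to 13. Of the 8 members with the highest CPM, 5 were higher in the libraries labelled knockdown and 3 (ABCD3, ABCD4 and ABCC4) lower. The transcript chosen may not be the one these cells use, which bears on levels between genes but not on fold changes.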

How the data were processed

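Poly(A) RNA of 6 libraries was sequenced as 50-base single reads from a stranded library kit, per the labels' protocols. The deposited tables hold raw counts per gene, made by the authors with bcl2fastq, TopHat2 2.0.8b and HTSeq on hg19, per the submitters' processing notes. Gene annotation, strand setting and handling of overlapping genes were not given in the sources used here. HTSeq's summary lines, 49.0% to 49.7% of each scramble table's total and 41.0% to 41.2% of each labelled knockdown table's, were left out.

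Genes passing filterByExpr (minimum count 10) were tested with edgeR 4.0.16 (R 4.3.3; TMM factors 0.980 to 1.02; group as the only term; Benjamini-Hochberg threshold 0.05), with limma 3.58.1 and DESeq2 1.42.0 among the alternatives. CPM used TMM-scaled sizes. Ratios of untested genes carry exact 95% intervals for counting error only. On simulated data of 13480 genes for this comparison, 62%, 88%, 100% and 100% of changes of 1.2, 1.5, 2 and 4-fold were recovered, with 3.85% false calls. The simulation gave all genes the same spread between libraries and changed only 50 genes per size. In the data 85.9% of tested genes were called, so these shares may not carry over. Lengths and shared 50-base windows came from GENCODE release 29, and promoters from RefSeq on GRCh38.p14.

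The members and the pathway, role and marker lists were chosen with earlier results of these data known. Library values are printed for members past the threshold with a log2 fold change of at least 1, the 8 with the highest mean CPM and all ABCE and ABCF genes. Of each pathway list up to 4 members with the smallest adjusted p are named, plus NR1H2, NR1H3, NR1I2, AHR and NFE2L2. Some genes these rules cover enter the counts, but their values are not reported here. Alternatives changed scaling, filter, test, threshold and replicate block, or left out each library in turn.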

Additional observations from a re-analysis of the deposited data

How the results depend on the processing

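None of the 29 tested ABC genes changed direction under any alternative tried (430 values kept their call and 32 lost it). The threshold of 0.01 and glmTreat used the main log2 fold changes, so direction could not change there. Against a 1.5-fold change (glmTreat), 15 ABC genes were higher and 0 lower, and 3307 and 2944 of all genes. ABCC6 and ABCG4, which passed the filter through the libraries labelled knockdown alone, were among the 15. Lower by at least 1 on the log2 scale was 1 ABC gene with no low-count filter (ABCA8) and 0 to 1 with a library left out, the 1 being ABCA4, which passed the filter without scramble replicate 2; both were named after their values were seen. Leaving out 1 library gave 21 to 23 higher and 4 to 6 lower ABC genes. Most genes of any kind were called as well: 5899 higher and 5782 lower of 13606 tested in the main fit. Each fit without a library called slightly fewer genes than that in both directions. The calls of ABCA5, ABCA10, ABCC2 and ABCF2 were also lost at a threshold of 0.01. With no filter, ABCA13 (adjusted p = 0.00197), ABCA17P (0.00388) and ABCC9 (0.0444) were called higher and ABCA8 (0.00913) lower, all on few reads. Same-numbered libraries deviated together with r = 0.0779, 0.0623 and -0.00188, and differently numbered ones with r from -0.0908 to 0.0304. These values cannot show whether libraries with the same number were handled together. The replicate block gave 23 higher and 6 lower ABC genes (13 and 0 by at least 1), and it changed no call of an ABC gene. Over all genes the block called slightly more in both directions than the main fit. Log2 fold changes of uncalled genes near 0 changed sign. Scaling by library totals gave APOE 0.00309, LPCAT3 0.0449, NFE2L2 0.0453, GSS 0.00560, PEX11A 0.0302, ALAS1 0.00185 and EIF2AK4 0.0495. EIF2AK4 was at 3.38e-04 with DESeq2 size factors, 7.37e-04 with the 1 CPM filter and 3.21e-04 with DESeq2. With a library left out, the ranges were -0.0503 to 0.0796 for SCUBE3 (below 0 without scramble replicate 3), -0.181 to 0.185 for APOE, -0.0701 to 0.113 for APOC1, -0.0545 to 0.0540 for LPCAT3, -0.0577 to 0.0342 for NFE2L2, -0.0831 to 0.0646 for PEX11A, -0.0212 to 0.0752 for FDX1, -0.0109 to 0.0481 for DENR, -0.0251 to 0.0190 for EIF2AK4 and -0.0105 to 0.0494 for EIF2S3. The causes were not tested. Depth limits the 16 untested members with reads, at most 12 in any library.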
